A study of Mus musculus with 143 samples.

Results

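The regions described here are the 570 of 12897 that a capSTARR-seq experiment in a mouse T cell line files under the class Enh_K4me1. They were chosen by that class name alone, which is made of chromatin marks and not of reporter values. The name is read as enhancers with H3K4me1 and without the H3K27ac and RNA polymerase II that other class names add. The sources used here do not give the cells in which those marks were measured, nor how the classes were cut. The 3 libraries were 2 RNA replicates and 1 input, all from P5424, a cell line labelled as T cells, with no treatment or genotype named. The 2 replicates share the input, and nothing in the labels says whether they came from separate cultures or transfections. So p-values rest only on the spread between these 2 RNA libraries, with the single input assumed to vary like them. The test used pools that spread over regions of similar level. A p-value therefore does not measure a region's own replicate agreement alone. For the input too the molecule is labelled total RNA, and whether it was plasmid DNA is not stated.

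Enhancers are stretches of DNA that raise transcription of a gene from a distance. Nucleosomes beside them carry H3K4me1, a single methyl group on lysine 4 of histone H3, both while an enhancer is at work and while it is only marked. H3K27ac, an acetyl group on lysine 27, is added where enhancers are active, and enhancers with H3K4me1 alone are often called primed or poised. In T cell development such sites are opened, activated and closed as thymocytes mature. In capSTARR-seq, DNA fragments from chosen regions are captured and placed inside the transcribed part of a reporter, so that an active fragment raises the amount of RNA that carries its own sequence. The RNA level of a region over its input level then reads that activity outside its native chromatin, and so apart from the marks the region carries in the genome.

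Activity is given as a fold, the RNA level plus 1 over the input level plus 1, both in FPKM (reads per length of region and size of library). A region is called active when its fold is at least 1.5 in both replicates. All 570 regions were 400 bp long. The median region held 306 reads in the input, and 289 and 310 in the RNA replicates. The fewest input reads were 15 and the most 4668, so the precision of a fold differed widely between regions. Reads amplified by PCR are not independent molecules, and intervals on shares cover counting error only. Positions are on the mouse build mm9.

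Most Enh_K4me1 regions gave less RNA than their input, as did most regions of the table. The median fold was 0.795 in replicate 1 and 0.803 in replicate 2, against 0.852 and 0.862 over all regions and 0.657 and 0.679 in Random, the class the files name for random regions. A fold of 1 is therefore not the level of a random region here. A fold under 1 in both replicates was seen in 324 Enh_K4me1 regions, or 56.8%, beside 50.8% of all 12897 regions and 72.4% of Random regions. A fold above 1 in both was seen in 127 regions, or 22.3%, beside 27% of all regions. On the log2 scale, the mean over replicates had its median at -0.35, with the middle 50% of regions between -0.74 and 0.12 and extremes of -2.30 and 1.36.

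A small group was active: 21 of the 570 regions, or 3.68% (Wilson 95% interval 2.42 to 5.57), beside 8.51% of all regions. The share was 1.26% (0.577 to 2.71) in Random and 5.22% (4.43 to 6.13) in the class Enh_K4me1_K27ac. It was 8.86% in the class Enh_K4me1_K27ac_PolII. The Enh_K4me1 interval overlaps those of Random and Enh_K4me1_K27ac. The folds of the 21 ran from 1.505 to 2.52 in replicate 1 and from 1.58 to 3.18 in replicate 2. A fold of 1.5 was reached by 52 regions in replicate 1, 9.12% beside 13.6% of all regions, and by 49 in replicate 2, 8.60% beside 14.6%. So 31 regions reached it in replicate 1 only and 28 in replicate 2 only, more than reached it in both. These 59 regions had a median of 184 input reads, against 358 among the 21. A fold of 2 in both was reached by 4 regions, or 0.702%, beside 3.49% of all regions. No Enh_K4me1 region reached a fold of 3 in both replicates, beside 0.985% of all regions. The count was also 0 among the 478 Random regions. It was 0.491% of Enh_K4me1_K27ac and 1.26% of Enh_K4me1_K27ac_PolII regions. The Wilson upper bound for 0 of 570 is 0.669%, and a floor of 3 counts is 0.526% of the class. Enh_K4me1 is thus not told apart here from Random or Enh_K4me1_K27ac.

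**Figure D1:**
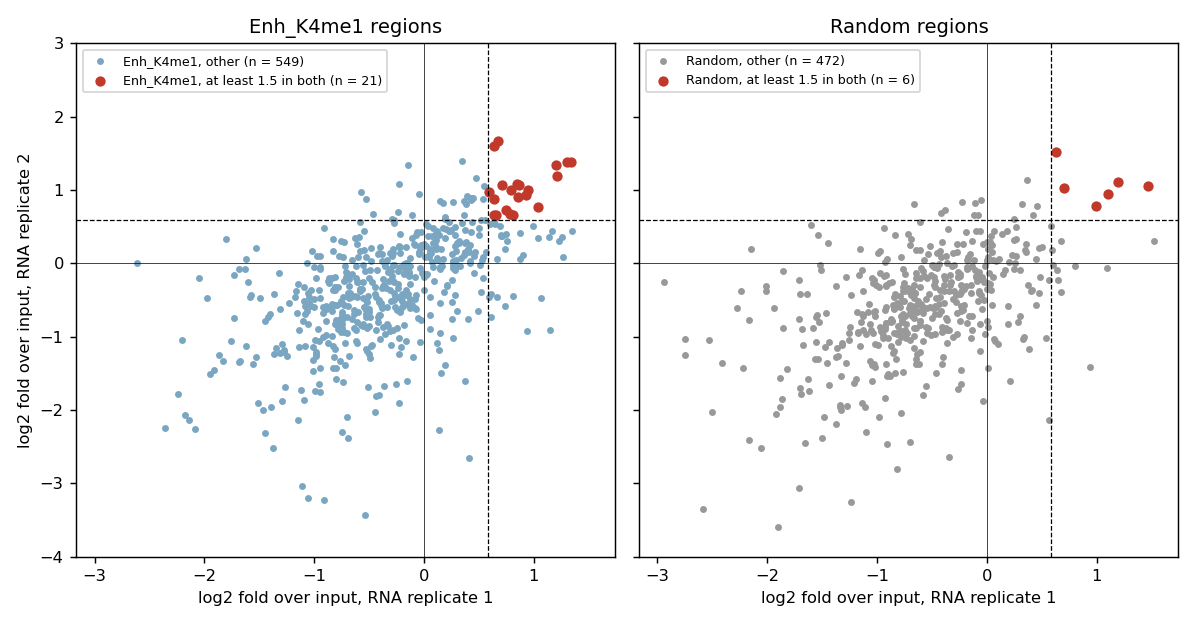
Each point is a region, with its log2 fold over input in RNA replicate 1 (x axis) and replicate 2 (y axis), for the 570 Enh_K4me1 regions (left) and the 478 Random regions (right). Dashed lines mark a fold of 1.5, and red points lie past it in both replicates, 21 on the left and 6 on the right.

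The strongest Enh_K4me1 region was chr5:100787399-100787798. Its RNA reads were 2088 in replicate 1 and 2261 in replicate 2, over 680 of input, or 131, 136 and 51.3 FPKM. Its fold was 2.52 and 2.62, and both RNA libraries stood well above the input. The nearest captured region lies only 24 bp away and is of the class Enh_K4me1_K27ac. That neighbour was active too, with folds of 2.13 and 2.30 from 1716, 1928 and 661 reads, and whether the same fragments were counted in both was not tested.

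On chromosome 17, chr17:44600149-44600548 followed, with 1399 and 1540 RNA reads over 462 input reads. Its folds of 2.47 and 2.61 were close to each other and to those of the chromosome 5 region. Unlike that region it stood alone. The nearest captured region, of the class Enh_K4me1_K27ac_PolII, lies 150426 bp away and had folds of 0.993 and 0.857.

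The region chr10:13649074-13649473 held 1021 and 1044 RNA reads over 358 input reads, with folds of 2.32 and 2.28. These 3 regions each had over 350 input reads and replicates within 10% of each other. The fourth, chr17:46171262-46171661, reached 2.29 and 2.54 on 28 input reads, with 98 and 115 RNA reads, so its input is a far weaker base. It lies 1736 bp from a region of the promoter class Pro_K4me3_K27ac_PolII, which itself stood below its input at 0.589 and 0.791.

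The authors' deposited table gives each region a class, active or inactive, per replicate. Those 4 regions are the Enh_K4me1 regions it calls active in both replicates, beside 2.70% of all regions. It called 11 Enh_K4me1 regions active in replicate 1, 1.93% beside 4.21% of all regions, and 9 in replicate 2, 1.58% beside 4.34%. The 12 that it called in a single replicate, 2.11% beside 3.16%, show how far replicates can part. The region chr15:84185574-84185973 held 142 RNA reads in the first replicate and 23 in the second over 46 input reads, with folds of 2.21 and 0.533. At chr11:62046249-62046648 the order was the other way, with 65 and 219 RNA reads over 61 input reads and folds of 0.906 and 2.53. Others of the 12 fell short by less, such as chr14:63610049-63610448 at 1.39 and 2.24.

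2 regions passed a fold of 3 in replicate 2 alone. They were chr9:64354599-64354998, with folds of 1.60 and 3.18 on 46 input reads, and chrX:99374699-99375098, with 1.56 and 3.04 on 16 input reads. In both, the RNA reads of replicate 2 were more than 2-fold those of replicate 1, at 220 against 98 and 95 against 39. Among the 21 active regions these 2 had the widest replicate spread.

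The 5 active regions with the deepest input had folds between 1.57 and 2.09. The region chr2:30532674-30533073 held the most RNA reads of all Enh_K4me1 regions, 7515 and 8084 over 3222 input reads, and its folds were 1.934 and 1.995. The next captured region, 14301 bp away and of the class Enh_K4me1_K27ac_PolII, was active at 2.04 and 2.90. At chr14:69885299-69885698, 3945 and 4728 RNA reads stood over 1795 input reads, with folds of 1.82 and 2.09. Its nearest neighbour, 6574 bp away and of the class Enh_K4me1_K27ac, was not active, at 0.780 and 0.693. The region chr11:61295224-61295623 held 2965, 3111 and 1289 reads and reached 1.90 and 1.91.

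Folds of the same order came from chr6:90498174-90498573 (2.05 and 1.71 on 614 input reads) and chr3:66782849-66783248 (1.73 and 1.99 on 697). The region chr10:24916349-24916748 stood at 1.75 and 1.58 on 1030 input reads, chr11:53926374-53926773 at 1.57 and 1.58 on 1592, and chr16:36674599-36674998 at 1.55 and 1.58 on 302. In each of these 5 both RNA libraries were above the input and the order of the replicates varied. The captured region nearest to the last of them, 75924 bp away and of the class Enh_K4me1_K27ac_PolII, stood far below its input at 0.247 and 0.306.

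The remaining active regions had at most 203 input reads, apart from chr4:115849249-115849648, described below with the overlapping regions. The region chr5:37427899-37428298 stood at 1.64 and 2.10 on 143 input reads, chr11:48655774-48656173 at 1.56 and 1.83 on 186, and chr11:32224424-32224823 at 1.67 and 1.66 on 203. The region chr18:56945774-56946173 reached 1.80 and 2.12 on 38 input reads and chr1:13240099-13240498 reached 1.72 and 1.60 on 37. The region closest to the threshold from within was chr14:9189449-9189848, at 1.505 and 1.97 with 66, 95 and 32 reads. Just outside it was chr18:10299724-10300123, at 1.56 and 1.48 with 211, 209 and 108 reads. The 21 were spread over 14 chromosomes. Chromosome 11 held 4 of them.

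**Figure D2:**
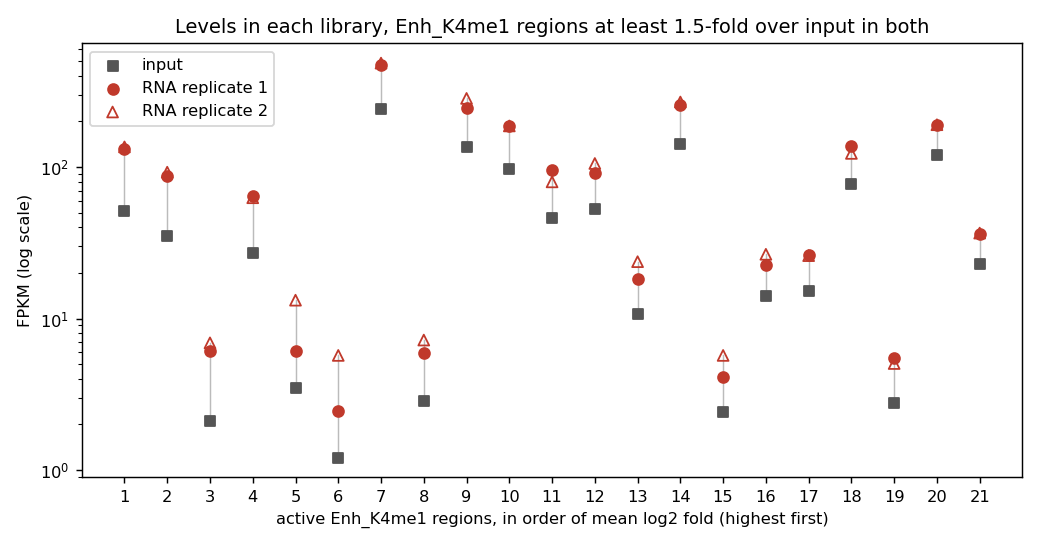
The level of each of the 21 active Enh_K4me1 regions in FPKM (log axis) in the input, RNA replicate 1 and RNA replicate 2, in the order of their mean log2 fold. Input levels span more than 100-fold, and the low-input regions at places 5 and 6 have the widest gap between RNA replicates.

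A test per region was run with limma on log2 of FPKM plus 1, RNA against input over all 12897 regions, with each RNA library shifted so that the median Random region had a fold of 1. The median log2 fold of Random over input was -0.61 in replicate 1 and -0.56 in replicate 2, so a region can pass here with a fold near 1 over the input. By this test 38 Enh_K4me1 regions were at least 1.5-fold above the Random centre at an adjusted p under 0.05, or 6.67%, beside 13.5% of all regions. The share above was 1.88% in Random, 8.31% in Enh_K4me1_K27ac and 11.3% in Enh_K4me1_K27ac_PolII. Another 2 Enh_K4me1 regions were at least 1.5-fold below the Random centre, or 0.351%, beside 0.442% of all regions. At an unadjusted p under 0.05 the counts were 90 above, 15.8% beside 22.1% of all regions, and 7 below, 1.23% beside 1.73%.

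These calls rest on the settings. With a prior variance that does not follow the level, limma called 0 of the 12897 regions in either direction. At an unadjusted p under 0.05 it had 50 Enh_K4me1 regions above and 8 below, with no count over all regions given here. Centred on the median of all regions it called 14 above and 3 below. The 14 were 2.46%, beside 6.92% of all regions, and the 3 stood beside 171 of the 12897. Without centring it called 6 above and 2 below. The 6 were 1.05%, beside 2.61%, and the 2 stood beside 92 of the 12897.

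Of the 38 regions above the Random centre, 12 were active in both replicates and 26 were not. All 38 had folds above 1 in both replicates and at least 257 input reads. The smallest adjusted p by limma among them was 7.4e-07, at the chromosome 2 region with the most RNA reads, whose log2 fold over the Random centre was 1.56 with a standard error of 0.14. The regions on chromosome 5 and chromosome 17 with the highest folds stood at 1.94 (standard error 0.22, limma adjusted p = 1.2e-05) and 1.93 (0.26, limma adjusted p = 7.1e-05). The 9 active regions without a call were those with at most 203 input reads, and their limma adjusted p ran from 0.067 to 0.371.

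The regions below the Random centre were chr8:37382074-37382473 and chr12:94214874-94215273. The first held 1078 and 1227 RNA reads over 2326 input reads, with folds of 0.389 and 0.424 (limma adjusted p = 0.0438). The second held 638 and 754 over 1582, with folds of 0.341 and 0.385 (limma adjusted p = 0.0430). Both had deep input and close replicates.

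The lowest folds came from regions with shallower input. The lowest was chr3:37504474-37504873, with 6 and 8 RNA reads over 80 input reads and folds of 0.196 and 0.211. At chr6:86447399-86447798 there were 0 and 0 RNA reads over 45, and at chr6:136798399-136798798 there were 2 and 0 over 50. The pseudocount of 1 sets much of the value there. The region chr11:79484449-79484848 held 15 and 18 RNA reads over 103 input reads, while chr2:19568799-19569198 held 55 and 0 over 109. A fold of 0.5 or less in both replicates was seen in 40 regions, or 7.02%, beside 6.79% of all regions and 11.9% of Random regions.

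The spread between replicates was that of the whole table and followed the depth. The SD of the difference in log2 fold between replicates was 0.678 over the 570 regions, against 0.697 over all regions. More than 2-fold apart lay 72 regions, or 12.6%, beside 12.9% of all regions. The replicates correlated across regions with Pearson's r of 0.566 and Spearman's rho of 0.593 (n = 570 regions, a description, since both replicates share the input). Over the 557 regions with reads in both RNA libraries, the squared difference in log reads between replicates averaged 24.2 times the variance of counting reads. The median of that ratio was 11.6. Read numbers alone therefore understate the error.

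Regions were split at the quintiles of input over all 12897. In the lowest quintile, 110 Enh_K4me1 regions had a median of 66.5 input reads and a replicate SD of 1.02, and 33.6% lay more than 2-fold apart. In the middle quintile the 139 regions had a replicate SD of 0.568. In the highest, 106 regions had a median of 1178 input reads and an SD of 0.341, and none lay more than 2-fold apart.

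The share active did not rise steadily with depth. It was 6 of 110 regions in the lowest quintile, or 5.45%, then 3 of 100, 2 of 139 and 4 of 115, and 6 of 106 in the highest, or 5.66%. Over all regions the shares were 6.78%, 7.17%, 6.75%, 7.13% and 14.7%, higher than among Enh_K4me1 regions in every quintile. The limma calls above the Random centre were 0, 0, 6, 10 and 22 Enh_K4me1 regions from the lowest to the highest quintile. Over all regions they were 46, 137, 236, 384 and 934, so calls were made at low input elsewhere in the table.

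**Figure D3:**
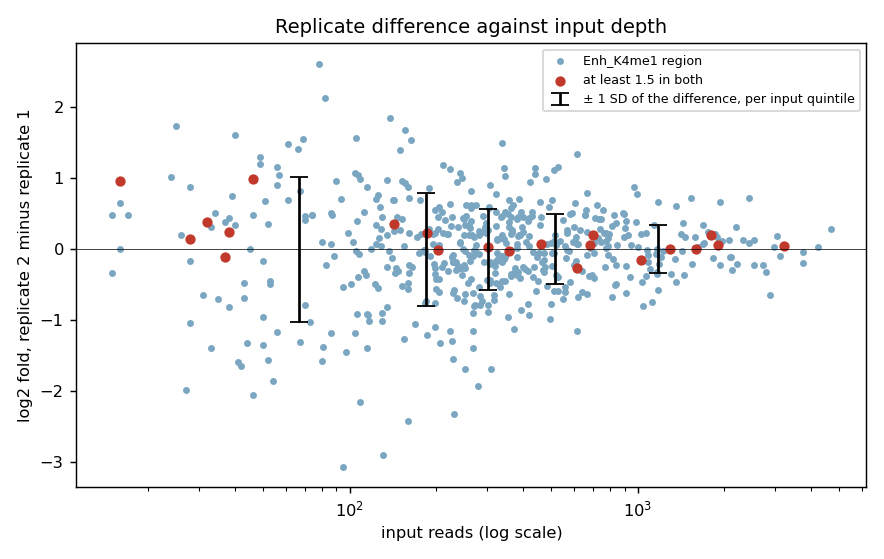
The difference in log2 fold between the RNA replicates (y axis) against input reads (log x axis) for the 570 Enh_K4me1 regions. Black bars show plus and minus 1 SD per input quintile, from 1.02 at the lowest to 0.341 at the highest, and red points are the 21 active regions.

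The largest differences between replicates lay at low depth, below the lower quartile of 160 input reads in the class. They were at chr16:91746574-91746973, with 157 and 5 RNA reads over 95 input reads, at chr17:4980374-4980773, with 2 and 98 over 78, and at chrX:163715174-163715573, with 103 and 0 over 130. Neither replicate was the higher one throughout. By contrast, the 3 regions with the most input were steady and stood below 1. The region chr8:47705124-47705523 (4668 input reads) had folds of 0.599 and 0.730, chr3:40884299-40884698 (4214) had 0.769 and 0.790, and chr3:148152724-148153123 (3752) had 0.656 and 0.575. The 3 with the fewest input reads had 15, 15 and 16, and one of them, chr2:129019024-129019423, had 0 reads in both RNA libraries.

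Set beside the other classes, Enh_K4me1 lay above Random and close to Enh_K4me1_K27ac over most of its range, and below Enh_K4me1_K27ac_PolII, most of all at its top. Its median log2 fold was above that of the 478 Random regions by 0.27 in replicate 1 and 0.24 in replicate 2. The difference from the 2646 Enh_K4me1_K27ac regions was -0.02 and -0.01, about the size of its spread between replicates (SD 0.0102), and its sign turned to 0.00701 for the mean with a pseudocount of 0.1 FPKM. The difference from the 7600 Enh_K4me1_K27ac_PolII regions was -0.11 and -0.10. The 2 values of each difference share 1 input, and no test was run on them.

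At the 95th percentile the mean log2 fold of Enh_K4me1 was 0.70, against 0.31 in Random, 0.76 in Enh_K4me1_K27ac and 1.02 in Enh_K4me1_K27ac_PolII. The replicates differed in the sign of the difference from Enh_K4me1_K27ac there, at -0.0574 in replicate 1 and 0.00393 in replicate 2, so these 2 classes are not set apart at that percentile. From Enh_K4me1_K27ac_PolII it was -0.31 and -0.26. At the 99th it was 1.02, against 0.89, 1.31 and 1.80. The highest Enh_K4me1 region stood at 1.36, near the highest of Random at 1.26. The highest of the other enhancer classes stood at 3.79 and 3.42. At the 5th percentile Enh_K4me1 stood at -1.42, and Enh_K4me1_K27ac and Enh_K4me1_K27ac_PolII at -1.46 and -1.42. Extremes grow with the number of regions in a class, and percentiles do so less.

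Median input depth differed little between the classes, at 306 reads in Enh_K4me1, 348 in Random, 263 in Enh_K4me1_K27ac and 265 in Enh_K4me1_K27ac_PolII. The replicate SD was 0.678, 0.711, 0.721 and 0.720 in the same order.

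**Figure D4:**
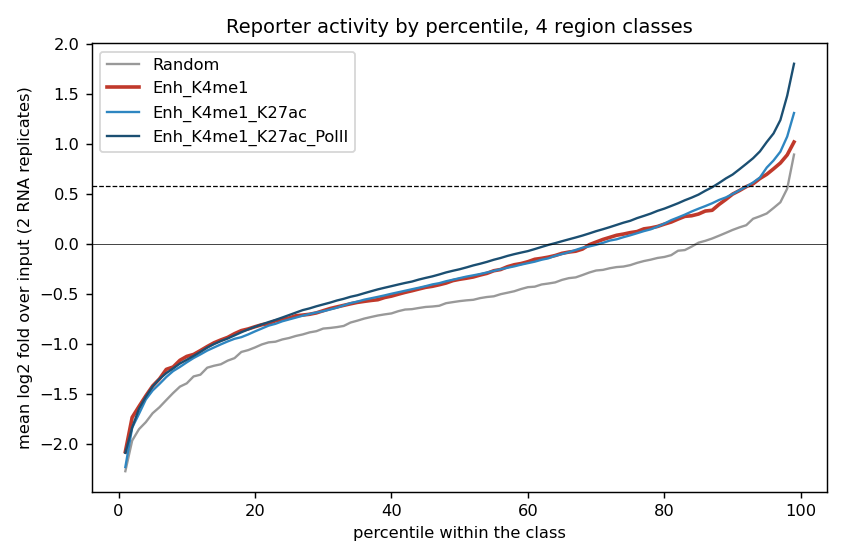
Mean log2 fold over input (y axis) at each percentile from 1 to 99 (x axis) within 4 region classes, with the dashed line at a fold of 1.5. Enh_K4me1 runs with Enh_K4me1_K27ac over most of the range, above Random throughout, and below both other enhancer classes at the 99th percentile.

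Enh_K4me1 regions were scattered in the genome. Chromosome 2 held the most, 60 or 10.5% of them, beside 7.89% of the other regions. Chromosome 11 followed with 47 (8.25% beside 7.88%) and chromosome 3 with 38 (6.67% beside 4.89%). The median distance from an Enh_K4me1 region to the next one of its class was 992 kb, and 10 had one within 10 kb.

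They lay closer to enhancers of the other classes, which hold many more regions, than to each other. The nearest captured region of any class was a median of 28.0 kb away, against 147 kb for Random regions, 15.7 kb for Enh_K4me1_K27ac and 10.5 kb for Enh_K4me1_K27ac_PolII. That nearest region was of the class Enh_K4me1_K27ac_PolII for 319 of them, or 56.0%, and of Enh_K4me1_K27ac for 119, or 20.9%. These shares are near those of the classes in the table, where Enh_K4me1_K27ac_PolII has 7600 of the 12897 regions and Enh_K4me1_K27ac has 2646. Whether more than class size is at work was not tested. A promoter-class region was nearest for 61, and 13 had one within 10 kb.

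Activity by distance from the nearest captured region showed no clear order. It was 3 of 149 regions at under 10 kb without overlap, or 2.01% (Wilson 95% interval 0.687 to 5.75), 13 of 300 at 10 to 100 kb, or 4.33% (2.55 to 7.27), and 4 of 103 farther away, or 3.88% (1.52 to 9.56). The intervals overlap. Median log2 folds were -0.33, -0.34 and -0.53.

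Pairs of neighbours allow a comparison within a locus. An Enh_K4me1_K27ac_PolII region lay within 10 kb, without overlap, of 101 Enh_K4me1 regions. The Enh_K4me1 region was the lower of the pair in both replicates in 45 pairs, the higher in both in 25, and mixed in 31. Median log2 folds were -0.38 for the Enh_K4me1 regions and -0.18 for their neighbours. None of the 101 Enh_K4me1 regions was active, beside 3.68% of all 570, a difference that was not tested. Of the 99 distinct neighbours 10 were, beside 8.86% of all Enh_K4me1_K27ac_PolII regions. Median input depth was similar, at 309 and 273 reads. The 2 levels were hardly related across pairs (Pearson's r -0.14, n = 101 pairs, a description).

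With Enh_K4me1_K27ac there were 39 such pairs, 15 lower, 12 higher and 12 mixed. Median log2 folds were -0.15 for the Enh_K4me1 regions and -0.16 for the neighbours, with 2 active Enh_K4me1 regions and 3 active neighbours. In 1 pair, the one on chromosome 5 described first, both were active. With the promoter class there were 13 pairs, 8 lower, 3 higher and 2 mixed. Median log2 folds were -0.36 and 0.17 there, but the promoter regions also had deeper input, at 834 reads against 394, and the part of that in the difference was not tested.

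18 of the 570 regions, or 3.16%, overlapped a region whose class name includes H3K27ac, 14 of them one of Enh_K4me1_K27ac_PolII and 4 one of Enh_K4me1_K27ac. Overlap is not particular to this class. It was seen in 5.82% of Enh_K4me1_K27ac, 2.20% of Enh_K4me1_K27ac_PolII and 0.418% of Random regions, and 12519 of all 12897 regions had none. In the 18, the overlap ran from 26 to 399 bp, so over the shared bases these Enh_K4me1 regions carry a class name with H3K27ac as well, against their label. In 8 of the 18, the read numbers were identical to those of the partner in all 3 libraries although the windows were shifted by 1 to 149 bp. The active region chr4:115849249-115849648 is one of them. Its 4131, 4475 and 1892 reads are also those of the Enh_K4me1_K27ac_PolII region chr4:115849275-115849674, so 1 set of reads, with folds of 1.81 and 1.88, is counted as active in both classes.

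In 17 of the 18 pairs the mean log2 folds lay within 0.5 of each other. The exception was chr17:50684424-50684823, which lay 1.05 below its partner. Its own reads were 110, 90 and 147, and the partner had 74, 28 and 29, so the partner's folds of 1.77 and 0.842 rest on few reads. Leaving out the overlapping regions leaves 20 active Enh_K4me1 regions.

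**Figure D5:**
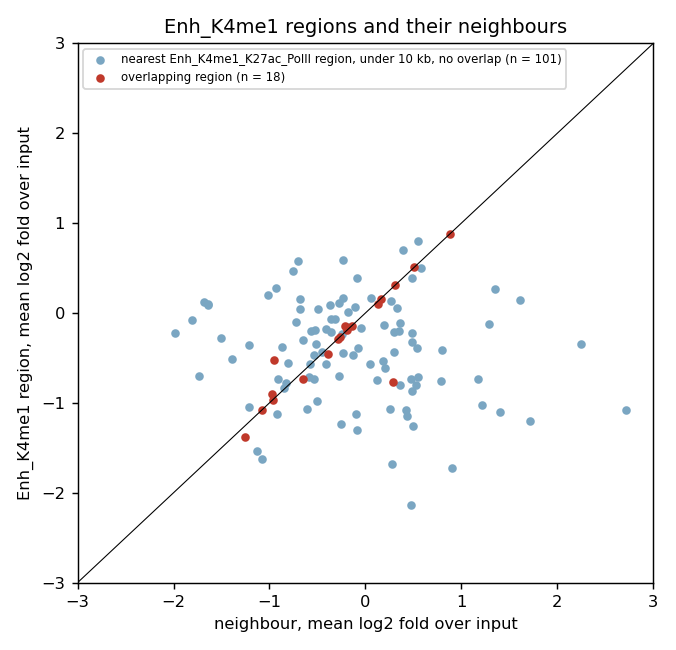
Mean log2 fold over input of Enh_K4me1 regions (y axis) against that of a neighbour (x axis), for the 101 with an Enh_K4me1_K27ac_PolII region under 10 kb away (blue) and the 18 that overlap another region (red). Red points lie on or near the line of equal values except 1, and blue points scatter with no visible relation.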

How the data were processed

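Of 143 samples in the series, 3 capSTARR-seq libraries were used and 140 were not analysed here. Groups and replicate numbers come from the titles. For each RNA replicate the authors deposited a table of all 12897 regions, with RNA and input levels in FPKM per the file headers. They also deposited a fold, a ratio recomputed as RNA FPKM plus 1 over input FPKM plus 1. Bowtie2, TopHat2 and Bowtie 1.2.2 and the build mm9 are named per the submitters' processing notes, with no roles. Read numbers were recovered from FPKM steps (100% of values whole within 0.1 reads), giving 8999732, 9583168 and 7199798 reads over all regions in RNA replicate 1, replicate 2 and input. They were used to describe depth, not for a count test. The column for gene names was filled for 0 regions and no gene table of mm9 was used here, so no region was assigned to a gene.

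The region class and the rules were chosen with earlier results of these data known. The regions named were those active in both replicates, those the deposited class calls active, the 5 lowest, the 3 with the largest replicate difference, those beside the threshold, those of most and fewest input, and those that overlap another. From the overlapping regions and those called in 1 replicate, examples are given. The regions called below the Random centre, the nearest region of each active region, and the start positions were looked at after their values were seen.

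Regions were tested with limma 3.58.1 under R 4.3.3 (lmFit, eBayes with a trend on level) on log2(FPKM + 1), two-sided, with Benjamini-Hochberg adjustment over all regions, called at an adjusted p under 0.05 and a 1.5-fold change. Fold changes on this scale are understated at low levels. A fit of the 2 ratios alone leaves out the error of their shared input. The input was therefore kept in the fit as a group of 1, assumed to vary like the RNA libraries. When tested on simulated data whose input was given the same noise as the RNA, the adjusted p did not hold its nominal error rate, so calls are descriptive. Alternatives covered the fold threshold, pseudocount (0.1), an input minimum of 10 FPKM, overlapping regions, centring, variance trend and each replicate. The limma fit without a replicate was not run, since it leaves no residual degrees of freedom. Shares carry Wilson 95% intervals. Python 3.11.15 and pandas 2.3.3 were used for the rest.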

Additional observations from a re-analysis of the deposited data

How the results depend on the processing

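The 21 Enh_K4me1 regions active in both replicates became 4 at a fold of 2, 0 at a fold of 3, 125 when the fold was taken over the Random median, 4 by the authors' deposited class, and 49 to 52 in single replicates. For the 125 no count over all regions is given here, so it cannot be read as high or low. The 38 limma calls above the Random centre became 14 when centred on all regions, 6 uncentred, 0 with no variance trend and 107 from the 2 ratios alone with a trend on input. That last fit both leaves out the input error and changes the trend, which were not told apart, and it called 3098 of all regions. The 2 calls below the centre became 0 with a pseudocount of 0.1 FPKM, 0 with no trend and 27 from the ratios with a trend on input. The 27 stood beside 514 of all 12897 regions. Other alternatives stayed within 1.5 times each count, though not always within that of its share. With an input of at least 10 FPKM, 56 of 453 Enh_K4me1 regions were above the Random centre. That was 12.4%, against 6.67% in the main fit, beside 20.5% of all regions tested. The median log2 fold of Enh_K4me1 minus that of Random, 0.22 for the mean over replicates, was 0.24 to 0.27 in single replicates and 0.25 with a pseudocount of 0.1 FPKM. Against Enh_K4me1_K27ac the difference of -0.01 turned to 0.00701 with that pseudocount and was -0.000582 without overlapping regions. Against Enh_K4me1_K27ac_PolII it was -0.10, and -0.103 to -0.108 in single replicates. The cause of these changes was not tested beyond what the settings themselves alter. Of 189 recomputed values of named regions, 13 moved by more than the replicate spread, all with the pseudocount of 0.1 FPKM. Leaving out a replicate cannot move a value that far, since the spread comes from the same 2 replicates. Some named regions did change sign when a replicate was left out. For the one on chromosome 15, the log2 fold of 0.120 turned to -0.908 without replicate 1. Sign changes were scored only among the named regions that were active or called by limma, and there were 0. All of these had folds above 1 in both replicates, so their sign could not change under these settings. The other limma-called regions, both of those below the centre included, were not recomputed one by one. No paired analysis was possible because both RNA libraries are compared with a single input, which carries no replicate number. In the lower 2 input quintiles, 0 of the 110 and 100 Enh_K4me1 regions passed limma above the Random centre. Of all regions 46 of 2580 and 137 of 2579 did, and the part of depth in this was not tested.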

Other observations

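The starts of the Enh_K4me1 regions follow a pattern of their own. Divided by 25 bp, the start position left a remainder of 24 in 550 of the 570 regions, or 96.5%. It left a remainder of 0 in all 2646 Enh_K4me1_K27ac and all 7600 Enh_K4me1_K27ac_PolII regions, and of 1 in all 1100 promoter-class regions. Of the 20 Enh_K4me1 regions off this grid, 1 was active, chr17:46171262-46171661, which is also the one of the 4 strongest with only 28 input reads. The overlap at chr2:166317224-166317623 shows the offset directly, since its partner starts 1 bp later and holds the same reads in all 3 libraries.

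Another 9 Enh_K4me1 regions lay under 400 bp from a captured region without overlapping it, and 0 of these had identical reads in all 3 libraries.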
